A study of Oryza sativa Japonica Group with 6 samples.

Results

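Intergenic long non-coding RNAs (lncRNAs) of rice endosperm are transcripts that lie outside every annotated gene. They were taken as the rows of the deposited lncRNA table with class code u, the assembler's code for a transcript that overlaps no reference gene, and were joined by locus name to the expression values. Loci whose rows carry more than 1 class code were left out, which removed 2 rows of class u. The set holds 360 rows at 353 loci, of 578 lncRNA rows at 532 loci and 30485 rows in the whole table. The other lncRNA rows are 138 antisense to an annotated gene (class x), 31 within introns (class i), 28 with splice sites in common with a gene (class j) and 17 that overlap exons (class o), and 4 rows at 2 loci carry more than 1 class code.

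The samples are endosperm from grains of NingJing1, a Japonica rice, collected 10 days after pollination. Plants grew in the field until booting and were then kept in growth chambers, with 36 °C days and 33 °C nights for the high temperature group (3 samples) and 28 °C days and 25 °C nights for the normal temperature group (3 samples). The series concerns the part of lncRNAs in the chalkiness that heat causes in rice grain. All samples share 1 cultivar, and the labels name no plants behind the samples of a group, so a p-value measures the spread between these samples only.

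Intergenic lncRNAs are transcribed by RNA polymerase II in most known cases, are often spliced and polyadenylated, and are as a class less abundant and more tissue-specific than mRNAs. Some act on chromatin or on neighbouring genes, some carry sites that pair with microRNAs, and for most no function is known. In plants, a transcript that pairs with a microRNA can be cut by it, can be the precursor of small RNAs, or can hold the microRNA away from its targets. In cereal endosperm the surrounding expression programme is that of starch and storage protein deposition.

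The deposited files hold no lncRNA sequence except the short stretches set against a microRNA in the authors' deposited microRNA table, which lists 9030 pairs. Of these pairs, 5724 involve an intergenic lncRNA, at 343 of the 353 loci and with 734 microRNA names. Most pairings were loose, with a median of 8 positions per pair that did not form a Watson-Crick base pair. Pairing was complete in 3 pairs with intergenic lncRNAs and in 0 of the 3306 pairs with other lncRNAs. The pairs shown are those complete ones, the pair with 1 unpaired position, and the closest pair of a strongly changed lncRNA, all picked after the pairings had been seen. Each sequence runs 5′ to 3′, capitals mark the seed (bases 2 to 8) of the microRNA, and capitals in the site mark the bases opposite that seed.
osa-miR827: uUAGAUGAccaucagcaaaca
site in MSTRG.8267: uguuugcugauggUCAUCUAa
osa-miR5505: gAGGAUUCgguauugaucgcua
site in MSTRG.13794: uagcgaucaauaccGAAUCCUc
osa-miR2872: uGGGGUUCuacaaaccgaacu
site in MSTRG.10809: aguucgguuuguaGAACCCCa
osa-miR818a: aAUCCCUUauauuaugggacgg
site in MSTRG.9156: ccgucccauauuauAAGGGAUu
osa-miR5154: aGCACCAGuugacgugacgcugag
site in MSTRG.21717: cucaacgucacgucaaCUGGCGCu

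The site for osa-miR827, a microRNA known in rice for its SPX-MFS phosphate transporter targets, lies in MSTRG.8267 at chr2:23900033-23901434. This transcript is 1402 bases long, has no introns and no assigned strand. Its level was 0.87, 0.54 and 0.96 FPKM (fragments scaled to transcript length and library total) in the high temperature samples, against 2.26, 2.35 and 1.89 FPKM in the normal temperature samples. The groups did not overlap, and the log2 fold change of −0.83 ± 0.14 (SE) passed the test (limma, Benjamini-Hochberg adjusted p = 0.0057). Where a transcript has no assigned strand, the deposited pairing does not show whether the transcript or its reverse complement holds the site. A site that is the full reverse complement of a microRNA can also lie opposite a microRNA gene, and the positions of microRNA genes were not used here.

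MSTRG.13794, paired with osa-miR5505, had 1.18, 1.43 and 0.80 FPKM in high temperature and 0.38, 0.83 and 0.63 FPKM in normal temperature. Its groups overlapped, and it did not pass the test (adjusted p = 0.12). MSTRG.10809, paired with osa-miR2872, was listed at 1.34, 0 and 0 FPKM in high temperature and at 0.03, 0.02 and 0.03 FPKM in normal temperature, too low to be tested. MSTRG.9156 pairs alike with osa-miR818a, osa-miR818b, osa-miR818c, osa-miR818d and osa-miR818e, all with the sequence shown and all unpaired at position 12 of the microRNA. It was listed above 0 in 1 high temperature sample, at 1.35 FPKM, and in 1 normal temperature sample, at 1.73 FPKM. MSTRG.21717 was called higher, and its site leaves positions 4 and 20 of osa-miR5154 unpaired. MicroRNA levels were not measured in these samples, and no cleavage or binding was measured.

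Pairs were spread over the set by length. A locus had a median of 9 deposited pairs and at most 159, the number for MSTRG.7352, which is also the longest intergenic lncRNA. Across 346 loci with 1 row, Spearman's rho between length and number of pairs was 0.81. All 7 seed positions were paired in 562 pairs, or 9.82%, against 11.9% of the pairs with other lncRNAs. For MSTRG.4922, which had the largest fall on the log2(FPKM + 1) scale, the closest deposited pair left 8 positions without a Watson-Crick pair. Of these, 4 were G:U pairs.

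Intergenic lncRNA transcripts were short. Their length had a median of 532.5 bases, with quartiles at 326.75 and 946 bases and a range of 201 to 6031 bases. The median was 475.5 bases in the other lncRNA rows, 433.5 in antisense rows and 1121.5 in class j rows. Of the 360 rows, 267, or 74.2%, were a single block without introns and 93 were spliced, against 11.5% single-block rows among the other lncRNAs. The single-block share was 80.6% in intronic rows (class i) and 0 in classes x, j and o.

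**Figure D1:**
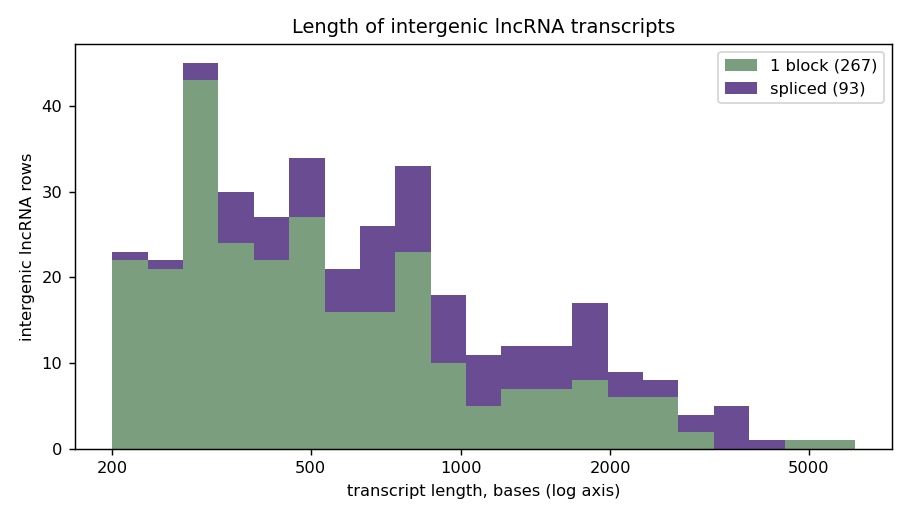
Number of intergenic lncRNA rows (y axis) by transcript length in bases (x axis, log scale), with single-block and spliced transcripts stacked. The 267 single-block rows fill most of the short lengths, and the longest transcript has 6031 bases.

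Most intergenic rows carried no strand. There were 73 rows on the plus strand, 70 on the minus strand and 217, or 60.3%, with none, against 8.72% without a strand in the other lncRNA rows. Intronic rows (class i) were like the intergenic rows, with 61.3% without a strand, and classes x, j and o had 0. All 93 spliced rows had a strand, and all 217 rows without a strand were single blocks. The other 50 of the 143 rows with a strand were single blocks, MSTRG.11401 and MSTRG.10849 on the plus strand among them. The series' design text calls the sequencing ssRNA, and whether the assembly used strand is not given, so what the missing strand of 60.3% of the rows reflects is not settled. For single-block transcripts without a strand, the deposited data do not tell a separate gene from an extension of a neighbour on either strand. The spans of 4 loci overlapped an lncRNA row outside the set, and 0 overlapped any of the 6 mRNAs for which a deposited table gives a position. The class code itself was taken as deposited, since the gene annotation behind it was not used here.

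Every chromosome carried intergenic lncRNAs. Chromosome 4 had the most rows, 46, followed by 43 on chromosome 1, 41 on chromosome 2 and 38 on chromosome 8, and chromosome 5 had the fewest, 16. The other lncRNA rows numbered 23, 24, 23 and 19 on chromosomes 4, 1, 2 and 8 and 19 on chromosome 5. Chromosome 5 was thus the only chromosome of the 12 with fewer intergenic rows than other lncRNA rows. Neighbouring loci on a chromosome lay a median of 623397 bases apart, but 8 of 341 neighbouring pairs overlapped or lay under 1000 bases apart and 26 lay under 10000 bases apart.

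Levels were low for all but a few members. The mean over the 6 samples had a median of 0.877 FPKM, with quartiles at 0.581 and 1.31 FPKM. A mean of at least 1 FPKM was reached by 151 rows, of at least 10 FPKM by 11 rows and of at least 100 FPKM by 3 rows. FPKM are scaled to transcript length, but they are not read counts, and the depth behind them is unknown. How well this scaling holds for the shortest transcripts was not tested, which limits comparison of levels between transcripts. A listed 0 may also be an estimate that failed. Spearman's rho between length and level was 0.16 across 346 loci with 1 row.

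The most abundant intergenic lncRNA, MSTRG.11401 at chr3:29382368-29382792, ranked 8 of all 30485 rows, mRNAs included. It is a plus-strand, single-block transcript of 425 bases. Its level was 5610, 7189 and 5522 FPKM in high temperature, against 11467, 16224 and 13656 FPKM in normal temperature. All high temperature samples lay below all normal temperature samples, with a log2 fold change of −1.17 ± 0.17 (adjusted p = 0.0035, limma). This 1 transcript made up most of the intergenic sum in each of the 6 samples, and its level was highest in normal temperature replicate 2.

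MSTRG.3829 at chr10:19040300-19040773, a spliced plus-strand transcript of 350 bases, ranked 20 of all rows. It had 1688, 2324 and 1605 FPKM in high temperature and 2425, 3050 and 2848 FPKM in normal temperature. The groups did not overlap, but the log2 fold change of −0.58 ± 0.19 did not pass the test (adjusted p = 0.065). It passed without high temperature replicate 2 (adjusted p = 0.023), under quantile normalization (0.035) and when mRNA and lncRNA rows were fitted together (0.047).

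In high temperature these 2 transcripts held 94.3% to 94.5% of the summed intergenic FPKM, and in normal temperature 93.1% to 93.9%. The intergenic sum was 7735, 10065 and 7547 FPKM in high temperature, against 14928, 20529 and 17715 FPKM in normal temperature. The ratio of the means was 0.477, with no overlap (exact permutation test over samples, two-sided, p = 0.10, the smallest that 3 against 3 samples allow). Without MSTRG.11401 and MSTRG.3829 the sum was 437, 552 and 420 FPKM in high temperature, against 1036, 1255 and 1212 FPKM in normal temperature, a ratio of 0.402 with the same exact p of 0.10. Without MSTRG.4922 as well, the third in abundance, the sum was 428, 541 and 409 FPKM in high temperature, against 613, 817 and 787 FPKM in normal temperature, and the ratio was 0.622 (exact permutation p = 0.10). Intergenic rows made up 85.9% to 87.0% of all lncRNA FPKM in high temperature and 93.8% to 94.7% in normal temperature. In bulk tissue, fewer cells that make a transcript and less of it per cell cannot be told apart.

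**Figure D2:**
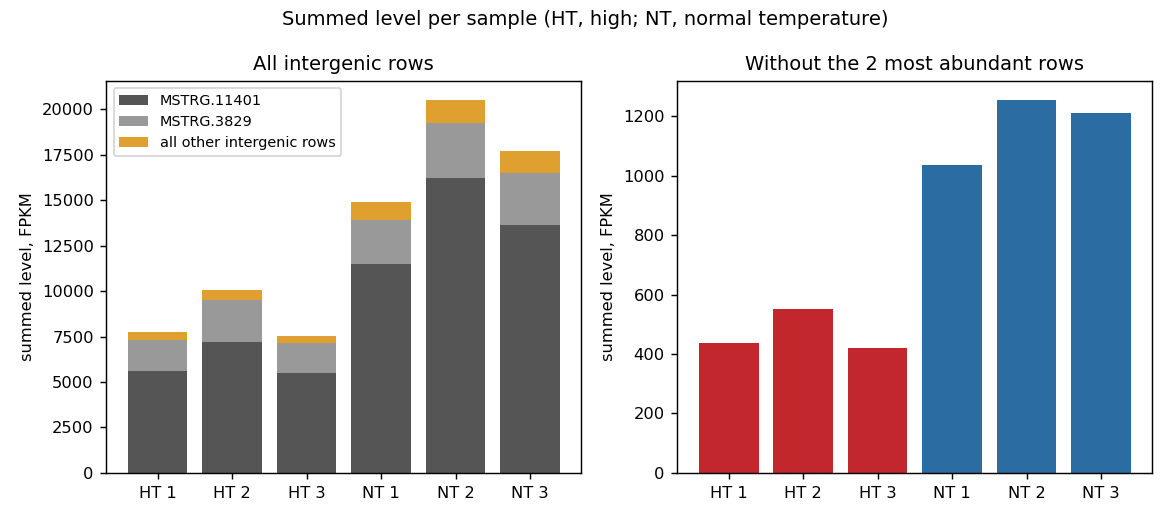
Summed FPKM of intergenic lncRNA rows (y axes) in each of the 3 high temperature (HT) and 3 normal temperature (NT) samples (x axes). On the left the bars are split into MSTRG.11401, MSTRG.3829 and all other rows, and on the right the other rows are shown alone, at 420 to 552 FPKM in high temperature and 1036 to 1255 FPKM in normal temperature.

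The number of rows above 0 differed little. It was 311, 314 and 305 in high temperature and 323, 318 and 319 in normal temperature (ratio 0.969, exact permutation p = 0.10). Markers of the tissue were present throughout, but they moved both ways between the groups. The granule-bound starch synthase GBSSI had 442 to 525 FPKM in high temperature and 1347 to 1442 FPKM in normal temperature, and the branching enzyme BEIIb had 78.2 to 89.1 FPKM in high temperature and 313 to 321 FPKM in normal temperature. The glutelin GLUB1 was higher, at 12682 to 13118 FPKM in high temperature and 6974 to 7246 FPKM in normal temperature, and the glutelin GLUA2 had 19733 to 20192 FPKM in high temperature and 18361 to 18767 FPKM in normal temperature. Markers of other grain tissues were also detected and moved with the groups. CAB2R, a chlorophyll-binding protein gene that marks green pericarp, had 33.3 to 38.9 FPKM in high temperature and 70.7 to 78.0 FPKM in normal temperature. RAB16A, a marker of embryo and aleurone, had 142 to 162 FPKM in high temperature and 25.8 to 28.4 FPKM in normal temperature. The oleosin gene OLE16b, from the same marker list, had 649, 656 and 679 FPKM in high temperature and 112, 569 and 74.3 FPKM in normal temperature, with normal temperature replicate 2 apart from its group. VP1, also an embryo and aleurone marker, lay between 12.97 and 14.97 FPKM in all samples, and the part of these tissues in the lncRNA results was not tested.

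The comparison of the 2 temperatures asked which intergenic lncRNAs change in heated endosperm. A row was tested if its mean over the 6 samples was at least 0.5 FPKM, which kept 294 rows at 291 loci and left out 66. In high temperature 37 rows rose and 54 fell at an adjusted p under 0.05, that is 12.6% and 18.4% of the rows tested. The background over all 455 lncRNA rows tested was 11.6% higher and 15.6% lower, or 27.3% in either direction, against 31.0% in the intergenic rows, which themselves make up most of that background. Among the other lncRNA rows tested, 20.5% were called, 16 higher and 17 lower, and the shares were not tested against each other.

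Among called rises, the median of the group means was 1.52 FPKM in high temperature and 0.253 FPKM in normal temperature, and among called falls it was 0.357 FPKM in high temperature and 1.85 FPKM in normal temperature. Of the 294 rows tested, 14 called rows rose and 32 fell at least 2-fold on the log2(FPKM + 1) scale. The background over all 455 lncRNA rows tested was 23 (5.05%) and 40 (8.79%). At least 4-fold, 2 called rows rose and 7 fell, for which no background was computed. The median log2 fold change was 0.85 among the called rises and −1.12 among the called falls, and this scale understates a rise from a level near 0. Over all 294 rows it was −0.20, beside −0.10 over all lncRNA rows tested. With trimmed-mean scaling of the samples these medians were −0.11 and −0.01, and that scaling moved the median of all mRNAs from −0.08 to 0.03. A positive fold change was seen in 111 rows, or 37.8%, where 44.2% of all lncRNA rows had one. Among the other lncRNA rows tested the share was 55.9% and the median log2 fold change 0.06. These values were not tested against each other.

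The 2 groups did not overlap in 146 rows, or 49.7%, beside 45.3% of all lncRNA rows and 37.3% of the other lncRNA rows tested. All 91 called rows were among the 146, and 55 were separated without passing the test. The count of rises was 24 without high temperature replicate 2 and 23 without high temperature replicate 3. When each sample was left out in turn, 54 of the 91 calls were tested and passed every time, 18 higher and 36 lower. Some of the other calls dropped out only because their mean fell under 0.5 FPKM without a sample. MSTRG.7704 is 1 of these, with a largest adjusted p of 0.0053 (limma) where it was tested. Most calls were of scarce transcripts, with a higher group mean under 2 FPKM in 55 of the 91. At a minimum mean of 1 FPKM, 17 rows rose and 34 fell of 151 tested.

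**Figure D3:**
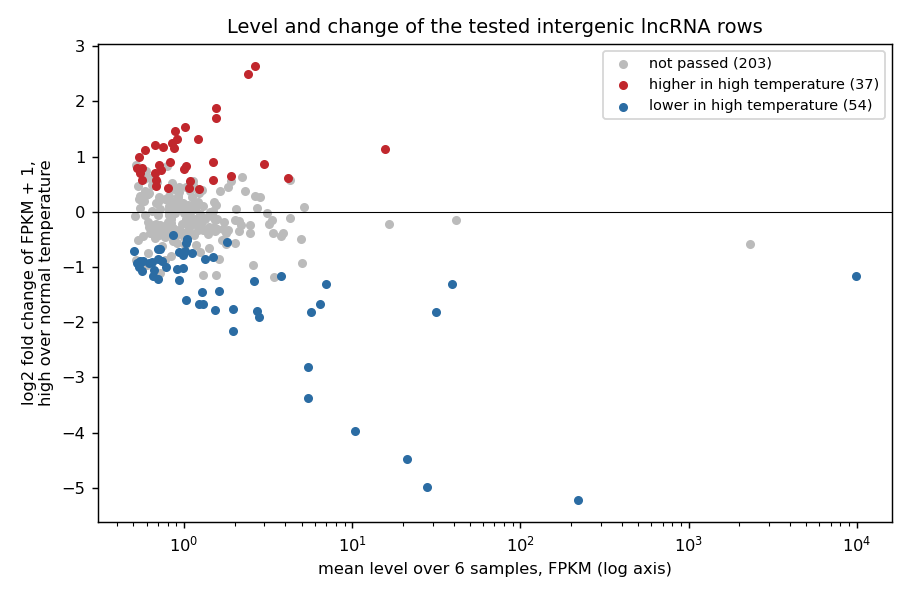
Log2 fold change of FPKM + 1, high over normal temperature (y axis), against the mean level over the 6 samples in FPKM (x axis, log scale) for the 294 tested intergenic lncRNA rows. The plot marks 37 higher and 54 lower rows in high temperature, and 7 of the 11 rows with a mean of at least 10 FPKM were lower.

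The falls are ordered by log2(FPKM + 1), which favours abundant transcripts. MSTRG.4922 at chr11:17082788-17083193, a single-block transcript of 406 bases with no strand, ranked 121 of all rows. It had 9.66, 11.09 and 10.66 FPKM in high temperature, against 423.03, 438.08 and 425.10 FPKM in normal temperature. The samples of each group lay close together and the groups far apart, with a log2 fold change of −5.23 ± 0.19 (adjusted p = 2.65e-05, limma).

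MSTRG.11131 at chr3:25780471-25780696, of 226 bases, had 0.68, 0.97 and 0.48 FPKM in high temperature and 38.29, 69.71 and 56.03 FPKM in normal temperature (log2 fold change −4.99 ± 0.27). MSTRG.10849 at chr3:18753084-18753598, a plus-strand transcript of 515 bases, had 0.67, 1.20 and 0.84 FPKM in high temperature and 40.71, 42.90 and 40.58 FPKM in normal temperature (−4.49 ± 0.18). MSTRG.13824 at chr4:33293269-33293503, of 235 bases, had 0.10, 0.60 and 0.41 FPKM in high temperature and 16.98, 23.42 and 20.64 FPKM in normal temperature (−3.97 ± 0.21). Every high temperature sample lay below every normal temperature sample, and each adjusted p was 5.48e-05 or smaller.

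MSTRG.4736 at chr11:9744769-9745593, of 825 bases, had 0.20, 0.13 and 0.07 FPKM in high temperature and 10.68, 10.75 and 10.90 FPKM in normal temperature (log2 fold change −3.38). MSTRG.8303 at chr2:24411200-24412679, a spliced minus-strand transcript of 533 bases, had 0.58, 0.75 and 0.51 FPKM in high temperature and 10.63, 10.03 and 10.08 FPKM in normal temperature (−2.80). These levels were tight within each group. MSTRG.21109 on chromosome 9 was more variable, with 0, 0.08 and 0.08 FPKM in high temperature and 2.33, 5.03 and 4.25 FPKM in normal temperature (−2.17 ± 0.23). MSTRG.10854 on chromosome 3, with 0.53, 0.52 and 0.69 FPKM in high temperature and 5.40, 4.25 and 5.25 FPKM in normal temperature, had a log2 fold change of −1.91. MSTRG.3185 on chromosome 10, with 2.45, 1.87 and 1.53 FPKM in high temperature and 8.39, 12.06 and 7.92 FPKM in normal temperature, had −1.82. MSTRG.3320, also on chromosome 10, closed the 10 largest falls with −1.81. The order differs on the ratio of mean FPKM, normal over high temperature, which was 80.8 for MSTRG.4736, 77.0 for MSTRG.11131, 72.6 for MSTRG.21109, 55.0 for MSTRG.13824, 45.8 for MSTRG.10849 and 40.9 for MSTRG.4922.

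**Figure D4:**
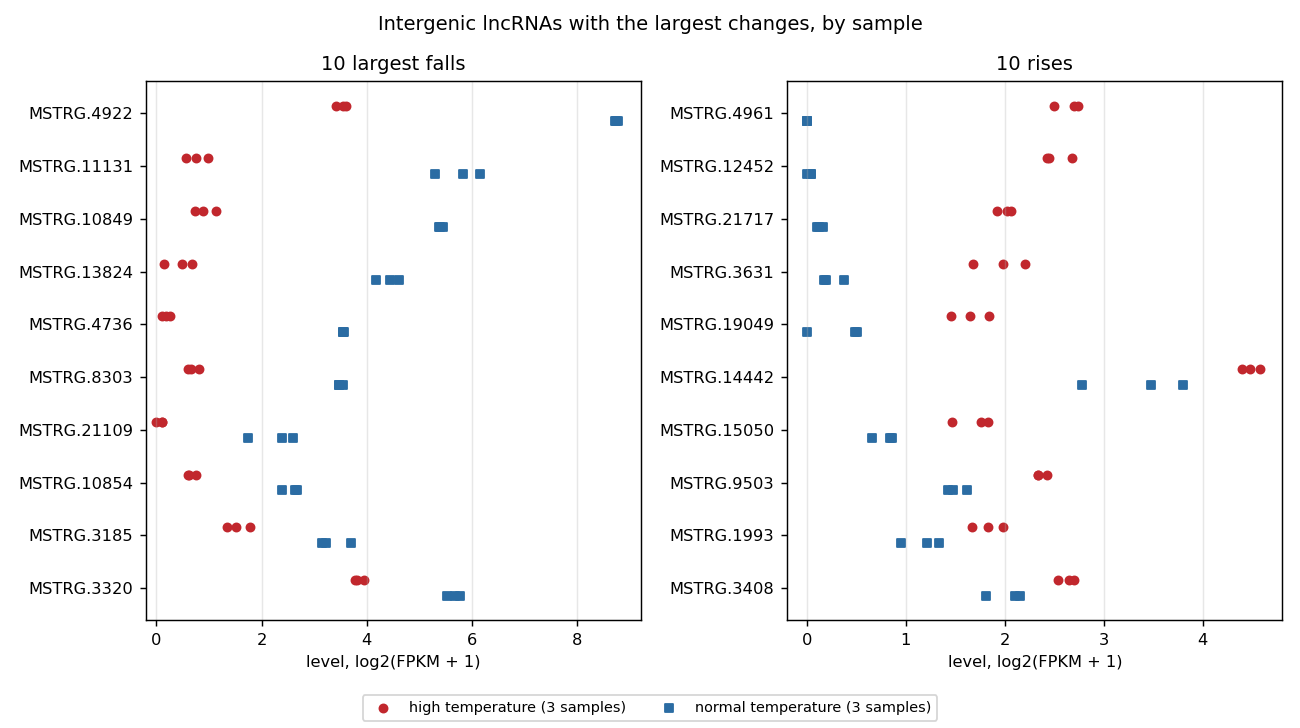
Level of each sample as log2(FPKM + 1) (x axes) for the 10 largest falls (left) and 10 rises (right) among called intergenic lncRNAs whose mean was 2 FPKM or more in the higher group, with 3 high temperature samples (circles) and 3 normal temperature samples (squares) per transcript. MSTRG.4922 lies at 9.66 to 11.09 FPKM in high temperature and 423.03 to 438.08 FPKM in normal temperature, and no transcript shown has overlapping groups.

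Among called members with 2 FPKM or more in the higher group, 10 rose and 26 fell, and the shares over all lncRNA rows at that level were not computed. The rise with the smallest adjusted p was that of MSTRG.4961 at chr11:18421424-18421736, a single-block transcript of 313 bases. It had 5.69, 4.66 and 5.49 FPKM in high temperature and was listed at 0 in all 3 normal temperature samples (adjusted p = 3.16e-05, limma). No fold is given for it, since the group it is set against has no value above 0.

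MSTRG.12452 at chr4:11204012-11204954, a minus-strand transcript of 943 bases, had 5.40, 4.39 and 4.46 FPKM in high temperature and 0.03, 0 and 0.03 FPKM in normal temperature (log2 fold change 2.49 ± 0.11). MSTRG.21717 at chr9:21619056-21622543, a spliced minus-strand transcript of 3407 bases and the bearer of the osa-miR5154 site shown above, had 3.05, 3.19 and 2.80 FPKM in high temperature and 0.09, 0.07 and 0.12 FPKM in normal temperature (1.88 ± 0.09). MSTRG.3631 at chr10:16425745-16427015 had 2.94, 3.60 and 2.20 FPKM in high temperature and 0.14, 0.30 and 0.13 FPKM in normal temperature (1.70 ± 0.16). All of these were at 0.30 FPKM or lower in every normal temperature sample.

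MSTRG.19049 on chromosome 7 had 1.74, 2.13 and 2.58 FPKM in high temperature and 0.42, 0.40 and 0 FPKM in normal temperature (log2 fold change 1.32 ± 0.18). MSTRG.15050 on chromosome 5 had 2.39, 1.77 and 2.56 FPKM in high temperature and 0.58, 0.81 and 0.79 FPKM in normal temperature (0.90 ± 0.14). MSTRG.9503 at chr3:1690879-1692623 had 4.36, 4.04 and 4.06 FPKM in high temperature and 1.79, 1.68 and 2.07 FPKM in normal temperature (0.86 ± 0.13). The groups were apart in each case by more than the range within either group.

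MSTRG.14442 at chr5:5818046-5821414 was the only rise among the 11 members with a mean of at least 10 FPKM. It is a spliced plus-strand transcript of 659 bases, with 21.37, 22.89 and 20.16 FPKM in high temperature and 10.17, 12.94 and 5.85 FPKM in normal temperature (log2 fold change 1.14 ± 0.30, adjusted p = 0.035, limma). Its call was lost on leaving out any 1 sample other than normal temperature replicate 2, at adjusted p between 0.062 and 0.090. The calls of the smallest named rises were also lost without single samples. MSTRG.1993 on chromosome 1 had 2.17, 2.56 and 2.96 FPKM in high temperature and 0.94, 1.32 and 1.53 FPKM in normal temperature (0.66, adjusted p = 0.024). Its adjusted p was 0.058 to 0.076 without high temperature replicate 2 or 3 or normal temperature replicate 1 or 2. MSTRG.3408 on chromosome 10 had 4.79, 5.51 and 5.27 FPKM in high temperature and 3.44, 3.31 and 2.51 FPKM in normal temperature (0.60, adjusted p = 0.035). Its adjusted p was 0.059 to 0.10 without any 1 sample other than normal temperature replicate 1.

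Among the other abundant members, MSTRG.3320 at chr10:9951489-9953161 had 12.73, 14.40 and 13.05 FPKM in high temperature, against 45.06, 53.42 and 50.40 FPKM in normal temperature. MSTRG.19454 at chr8:4669833-4670060, of 228 bases, had 21.18, 27.99 and 16.45 FPKM in high temperature and 38.24, 72.16 and 58.68 FPKM in normal temperature (log2 fold change −1.31 ± 0.33, adjusted p = 0.030, limma). Without high temperature replicate 1 or 3 or normal temperature replicate 2 or 3 its adjusted p was 0.077 to 0.10. Of the 11 members with a mean of at least 10 FPKM, 7 fell, 1 rose and 3 did not pass, and the shares over all lncRNA rows at that level were not computed.

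Of the abundant members that did not pass, MSTRG.17626 at chr7:2092762-2093773 had the widest spread within groups. This spliced minus-strand transcript was at 19.48, 84.49 and 18.02 FPKM in high temperature and at 18.06, 27.89 and 80.09 FPKM in normal temperature. A single sample of each group stood about level with the other group's highest, and the adjusted p was 0.91. MSTRG.12557 on chromosome 4 had 12.02, 19.86 and 12.85 FPKM in high temperature and 11.72, 24.79 and 17.33 FPKM in normal temperature, with replicate 2 the highest in both. MSTRG.8637 on chromosome 2 had 4.25, 6.81 and 4.98 FPKM in high temperature and 3.33, 6.53 and 5.20 FPKM in normal temperature, a log2 fold change of 0.09 ± 0.27 that cannot be told from 0 or from a modest change.

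Other members were at 0 in a single sample. MSTRG.6135 on chromosome 12 had 5.55, 6.35 and 0 FPKM in high temperature and 3.81, 7.64 and 6.87 FPKM in normal temperature. MSTRG.7078 on chromosome 2 had 2.59, 0 and 2.35 FPKM in high temperature and 2.59, 4.51 and 3.45 FPKM in normal temperature. MSTRG.12878 on chromosome 4 had 2.36, 1.69 and 1.41 FPKM in high temperature and 3.32, 0 and 3.47 FPKM in normal temperature. The lone 0 values stood far from the samples of the same group, and none of the 3 members passed the test. Across the set, 108 rows were at 0 in at least 1 sample and 252 were above 0 in all 6.

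A few rows were listed in 1 temperature only. In all 3 high temperature samples and in 0 normal temperature samples, 6 rows were above 0, between 0.24 and 5.69 FPKM. The reverse held for 10 rows, between 0.21 and 2.58 FPKM. MSTRG.16227 was the highest of those, listed at 0 throughout high temperature, against 1.45, 2.58 and 2.13 FPKM in normal temperature (adjusted p = 0.00089, limma). Only 3 rows of each kind were abundant enough to be tested, and all 6 passed, a count that the filter itself favours in rows at 0 in 1 group. The other 10 had a mean under 0.5 FPKM over the 6 samples, among them MSTRG.20874 with 1.29, 0.67 and 1 FPKM in high temperature and MSTRG.5396 with 1.22, 0.93 and 0.60 FPKM in high temperature, both listed at 0 in normal temperature.

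The balance of rises and falls is given by transcript length, without a test. Of 48 tested rows of up to 300 bases, 3 rose and 12 fell, and of 73 rows over 300 and up to 500 bases, 7 rose and 17 fell. Of 96 rows of over 500 and up to 1000 bases, 15 rose and 18 fell. Of 47 rows of over 1000 and up to 2000 bases, 9 rose and 3 fell, and of 20 longer rows 3 rose and 1 fell. Shares by length over all lncRNA rows were not computed, so these counts have no background beside them. Spearman's rho between length and log2 fold change was 0.22 across 284 rows, given as a description because all rows share the same 6 libraries.

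Among loci with 1 row, the 3 longest members with a mean of at least 1 FPKM were lower in every high temperature sample without passing the test. MSTRG.1198, a locus with 2 rows, has a transcript of 3817 bases that cannot be tied to either row, and it was left out of this ranking. MSTRG.7352 at chr2:6353597-6359627, of 6031 bases, had 1.1, 0.99 and 0.98 FPKM in high temperature and 1.77, 1.42 and 1.49 FPKM in normal temperature (log2 fold change −0.34 ± 0.10, adjusted p = 0.058, limma). MSTRG.10724 at chr3:16197738-16202787, of 5050 bases, and MSTRG.4820 at chr11:13752498-13757414, of 3551 bases, had log2 fold changes of −0.28 and −0.35 with adjusted p of 0.12 and 0.073. MSTRG.7352 passed at a minimum mean of 1 FPKM (adjusted p = 0.046), under quantile normalization (0.048) and when mRNA and lncRNA rows were fitted together (0.023), and MSTRG.4820 passed in that joint fit (0.020). The shortest members with a mean of at least 1 FPKM, MSTRG.14501 and MSTRG.16424 with 209 bases each and MSTRG.14663 with 213 bases, had overlapping groups and log2 fold changes of 0.08, 0.00 and −0.23.

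Calls by strand and by chromosome are given as counts. On the plus strand 5 rows rose and 11 fell of 53 tested, on the minus strand 7 rose and 8 fell of 55, and without a strand 25 rose and 35 fell of 186. The share called was largest on chromosome 11, where 3 rose and 7 fell of 20, and on chromosome 3, where 3 rose and 6 fell of 20. It was smallest on chromosome 12, where 2 rose and 3 fell of 23. Chromosome 5 had 3 rises and 0 falls among its 10 tested rows. With 10 to 40 tested rows per chromosome, no chromosome was tested against the others. The share called was 31.0% over all intergenic rows tested and 27.3% over all lncRNA rows tested. Shares by strand or chromosome over all lncRNA rows were not computed.

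**Figure D5:**
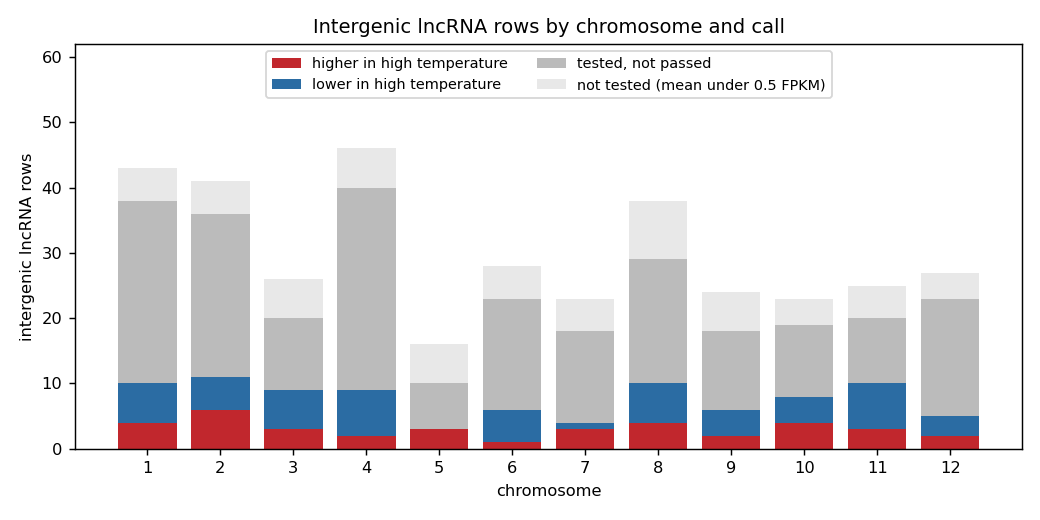
Number of intergenic lncRNA rows (y axis) on each of the 12 rice chromosomes (x axis), stacked by the result of the test between high and normal temperature. Chromosome 4 holds 46 rows and chromosome 5 holds 16, and rows that were higher and rows that were lower in high temperature occur together on every chromosome except 5, which had 3 higher and 0 lower.

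Some close neighbours moved together and others did not. MSTRG.5293 and MSTRG.5294 lie 359 bases apart at chr11:26060575-26061961, are both 514 bases long, and both fell. MSTRG.5293 had 0.41, 0.75 and 0.84 FPKM in high temperature and 1.82, 1.78 and 2.37 FPKM in normal temperature. MSTRG.5294 had 0.36, 0.37 and 0.21 FPKM in high temperature and 1.43, 1.57 and 1.97 FPKM in normal temperature. The log2 fold changes were −0.85 and −1.01, and near-identical copies could share reads here, which the data cannot show without sequence.

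MSTRG.3319 and MSTRG.3320, both spliced, on the minus strand and 843 and 853 bases long, lie 1703 bases apart on chromosome 10 and both fell, by 1.31 and 1.81 on the log2 scale. MSTRG.3319 had 3.60, 3.58 and 3.48 FPKM in high temperature and 9.39, 11.58 and 10.03 FPKM in normal temperature. MSTRG.7703 and MSTRG.7704 lie 2302 bases apart on chromosome 2 and both rose. MSTRG.7704 was at 1.3, 1.12 and 1.08 FPKM in high temperature and listed at 0 in normal temperature. MSTRG.7703 had 0.81, 0.94 and 1.04 FPKM in high temperature and 0.10, 0.06 and 0.20 FPKM in normal temperature. Pairs beyond the 5 closest were picked after their values had been seen.

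The 6 members within chr12:13342311-13394503 were mixed. They are not 1 run under a gap limit of 10000 bases, since MSTRG.6129 ends at 13350044 and MSTRG.6132 starts at 13371581. MSTRG.6145, which starts at 13410192 and did not pass, was left out of this stretch. MSTRG.6132 fell, with 1.07, 1.32 and 1 FPKM in high temperature and 4.72, 3.55 and 3.94 FPKM in normal temperature (log2 fold change −1.25). MSTRG.6136, to its right, rose, with 1.12, 1.47 and 1.01 FPKM in high temperature and 0.26, 0.30 and 0.10 FPKM in normal temperature (0.85). The other members of that stretch, MSTRG.6126, MSTRG.6129, MSTRG.6135 and MSTRG.6139, did not pass. Of the 5 closest pairs, 4 had no called member. They are MSTRG.12173 with MSTRG.12174, whose spans overlap by 2236 bases on chromosome 4, MSTRG.13795 with MSTRG.13796 at 261 bases, MSTRG.2675 with MSTRG.2676 at 296 bases and MSTRG.2676 with MSTRG.2677 at 602 bases.

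At 7 loci the set has 2 rows, which the tables do not tell apart by length. Rows of a locus could differ in direction. Of MSTRG.21090, 1 row had 0.22, 0.14 and 0.20 FPKM in high temperature and 1.39, 1.48 and 1.23 FPKM in normal temperature (adjusted p = 0.0010, limma). The other row had 0.59, 1.82 and 0.54 FPKM in high temperature and 0.05, 0.02 and 0.09 FPKM in normal temperature (adjusted p = 0.058). An assembler shares reads between such rows, so their separate levels are uncertain.

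The authors' deposited table of changed lncRNAs lists 57 loci, of which 45, or 78.9%, are intergenic, 10 up and 35 down, where 66.4% of all lncRNA loci are intergenic. Of the 44 with a single row, the authors' deposited table has 10 up, of which 7 were called higher here and 3 did not pass. Of its 34 down, 25 were called lower here, 7 did not pass and 2 were too low to be tested. In the other direction, 32 of the 88 single-row calls here, or 36.4%, are in the authors' deposited table. The 56 calls outside it, 30 higher and 26 lower, were smaller, with a median absolute log2 fold change of 0.86 against 1.52 for those inside it.

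For 3 loci the direction in the authors' deposited table is opposite to that of the mean FPKM. MSTRG.8435, listed as down, had 1.18, 0.40 and 0.22 FPKM in high temperature and 0.23, 0.84 and 0.43 FPKM in normal temperature. MSTRG.14808, listed as up, had 0.98, 1.20 and 1.47 FPKM in high temperature and 1.79, 1.02 and 1.55 FPKM in normal temperature. MSTRG.16664, listed as down, had 1.88, 1.71 and 0.90 FPKM in high temperature and 0.87, 1.83 and 1.75 FPKM in normal temperature. In each of the 3 the groups overlapped widely and the difference did not pass the test here.

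The authors' deposited starch table pairs lncRNAs with 6 mRNAs of starch metabolism by Pearson correlation. Of its 34 lncRNA loci, 28, or 82.4%, are intergenic. This is beside 78.9% of the loci in the authors' deposited table of changed lncRNAs and 66.4% of all lncRNA loci. Of its 149 pairs, 119 involve intergenic loci, 63 positive and 56 negative. The absolute coefficients in the authors' deposited table run from 0.951 to 0.9998. The samples fall into 2 groups that differ in these mRNAs, so the group difference enters each coefficient, and correlation of values centred within the groups was not computed here.

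In that table the starch synthase SSIIa (LOC_Os06g12450) has 17 positive and 7 negative partners among intergenic lncRNAs. The small subunits of ADP-glucose pyrophosphorylase, which makes the glucosyl donor of starch, have 15 positive and 7 negative partners (AGPS2) and 17 positive and 6 negative partners (AGPS1). The starch-degrading alpha-amylases have the opposite balance, with 7 positive and 18 negative partners for AMY3E and 7 positive and 17 negative for AMY3D. AMY3D was scarce, at 0.74, 0.92 and 0.99 FPKM in high temperature and 0.01, 0 and 0 FPKM in normal temperature. SSIIa itself had 41.12, 42.78 and 43.35 FPKM in high temperature and 134.90, 136.07 and 132.98 FPKM in normal temperature, and AMY3E had 481.47, 477.37 and 501.55 FPKM in high temperature and 158.54, 148.13 and 144.33 FPKM in normal temperature.

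Of the 28 intergenic loci in the starch table, 7 rose and 18 fell here. MSTRG.281 did not pass (adjusted p = 0.068, limma), MSTRG.20159 was too low to be tested, and MSTRG.21090 has the 2 rows described above. Those with a single row are all in the authors' deposited table of changed lncRNAs as well. The starch table thus holds loci already listed as changed, so a high share of calls follows from that choice. Over all intergenic rows tested, 31.0% were called. Partners of 5 of the mRNAs at once were 19 loci, among them MSTRG.4922, MSTRG.10849, MSTRG.13824, MSTRG.4736 and MSTRG.8303, which fell, and MSTRG.4961, MSTRG.12452, MSTRG.12462, MSTRG.7703 and MSTRG.1384, which rose. MSTRG.12462 had 0.78, 1.08 and 1.1 FPKM in high temperature and 0.14, 0.14 and 0.13 FPKM in normal temperature. MSTRG.1384 had 0.76, 0.94 and 1.05 FPKM in high temperature and 0.20, 0.20 and 0.11 FPKM in normal temperature. The 2 most abundant intergenic lncRNAs, MSTRG.11401 and MSTRG.3829, are not among the 28.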

How the data were processed

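Ribosomal RNA was depleted from total RNA and the libraries were sequenced in pairs on an Illumina instrument, per the labels' protocols. StringTie 1.3.0, HISAT2 2.0.4, FastQC 0.10.1 and cutadapt 1.10 are listed, without their roles, per the submitters' processing notes. The series' design text calls the sequencing ssRNA, but no strand setting, build or annotation is given in the sources used here. Expression was deposited by the authors as FPKM, per the file headers. The authors also deposited tables with the positions (1-based) and lengths of lncRNAs, their calls of changed lncRNAs, microRNA pairings (3 lines were empty), and a score that is a Pearson correlation with starch mRNAs, per the file headers. How the authors computed these tables is not given in the sources.

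Tests used limma 3.58.1 in R 4.3.3 on log2(FPKM + 1), a scale that understates changes of low values, with a trend prior, two-sided, over all lncRNA rows with a mean of at least 0.5 FPKM, Benjamini-Hochberg adjusted at 0.05. Each adjusted p is from this fit, and fold changes are given ± SE. Sums were compared with exact permutation tests (SciPy 1.17.1). Pairings were scored base by base in Python 3.11.15, counting only Watson-Crick pairs as paired. Fold changes are of high over normal temperature. The scripts were tested on simulated data.

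The members and lists were chosen with earlier results of these data known. Named members are the 10 largest rises and falls among calls that reached 2 FPKM in the higher group without overlap, the 10 most abundant, the longest and shortest, the 5 with the smallest adjusted p, those closest to no change, the 5 closest pairs, the members with the most deposited pairs, and members with 1 sample over 10 times away from the others of its group. Marker symbols were paired with identifiers by hand. Alternatives varied the pseudocount, the minimum level, the scaling, the fit, the treatment of loci with 2 rows, and left out each sample. The sums without the 2 and the 3 most abundant rows were added after seeing the data.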

Additional observations from a re-analysis of the deposited data

How the results depend on the processing

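At a minimum mean of 1 FPKM, 17 intergenic rows rose and 34 fell, of 151 tested, so fewer rows could be called. The median log2 fold change was −0.33 with a pseudocount of 0.1, −0.11 with trimmed-mean scaling and −0.14 on rescaling without the 100 most abundant rows, and the cause was not tested. Leaving out 1 sample at a time, 23 to 35 rows rose, 44 to 56 fell, and the median was −0.26 to −0.13. Other alternatives kept both counts within 1.5 times. Deviations of same-numbered samples were hardly correlated (−0.016, 0.0090 and 0.0034), so replicate numbers were not taken to pair the samples. Replicate 2 nonetheless had the largest intergenic sum of each group (high temperature 10065 FPKM, normal temperature 20529 FPKM). The same held without the 3 most abundant rows (541 and 817 FPKM, in that order). Whether same-numbered samples share an effect in the intergenic rows was not tested separately. With the replicate block, 34 rows rose and 53 fell, MSTRG.3408 lost its call (adjusted p = 0.066), and MSTRG.3829 and MSTRG.13795 gained one (adjusted p = 0.036 each, limma). Of 47 named members, 24 were called, and 4 of these lost the call under some alternative in which they were tested. MSTRG.5294, also called, has a mean of 0.985 FPKM and was not tested at a minimum mean of 1 FPKM. The direction turned only in members that were not called. It turned for MSTRG.17626 (0.0099) and MSTRG.1198 row 2 (0.031) under trimmed-mean scaling, and for MSTRG.16424 there (0.085) and on rescaling without the 100 most abundant rows (0.054). Leaving out 1 sample at a time, log2 fold changes ran from −0.85 to 0.46 for MSTRG.17626, −0.48 to 0.026 for MSTRG.12557, −0.0059 to 0.16 for MSTRG.14501, −0.22 to 0.26 for MSTRG.16424 and −0.13 to 0.27 for MSTRG.8637. They ran from −1.43 to 0.010 for MSTRG.6135, −0.17 to 0.54 for MSTRG.2676, −0.18 to 0.16 for MSTRG.1198 row 2, −0.18 to 0.19 for MSTRG.16664 and −0.65 to 0.43 for MSTRG.12878. Depth is unknown, so how far it limits the scarce rows cannot be given.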
